A study of Mus musculus with 10 samples.

Results

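The genes described here are the 6 of the mitochondrial genome that encode subunits of respiratory complexes III to V, chosen by symbol from the 55359 genes of the deposited table: *mt-Cytb* of complex III, *mt-Co1*, *mt-Co2* and *mt-Co3* of complex IV, and *mt-Atp6* and *mt-Atp8* of complex V. All 6 passed the filter on low values, a mean of at least 0.5 FPKM (read count scaled to transcript length and library size), as did 13548 genes in all. They were measured by polyA-selected RNA sequencing in C2C12, a mouse myoblast line that fuses into myotubes when serum is withdrawn. The 5 si-Control libraries came from cells given a scrambled siRNA, and the 5 si-*Fndc1* libraries from cells given an siRNA against *Fndc1*, which encodes the secreted protein studied as a myokine. Both groups are labelled as given 100 nM siRNA, grown in 20% FBS and collected on day 4 in 2% horse serum, whereas the series description states 48 h after transfection, and the methods and labels name different transfection reagents. A single siRNA sequence against *Fndc1* is listed, so its effects on other transcripts cannot be told apart from those of losing *Fndc1*. The methods state in general that experiments were repeated independently, but neither they nor the labels say that the 5 libraries of a group came from separate cultures. If they did not, p-values measure only the spread between these libraries.

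The mitochondrial genome is a small circle transcribed from both strands into long precursors. The transfer RNAs that lie between most of its genes are cut out, which frees the mRNAs, and a polyA tail is then added to them. Cytochrome b carries electrons through complex III, the 3 cytochrome oxidase subunits form the catalytic core of complex IV, and ATP6 and ATP8 belong to the membrane part of the ATP synthase. Each works only with partners encoded in the nucleus, and muscle cells make more of these complexes as they differentiate.

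The sequences below show where the 6 mRNAs overlap, how they end and where a part of chromosome 1 holds the same bases. Each of these decides which reads can be given to which gene. All were read from the NCBIM37 genome, whose coordinates for these genes on the mitochondrial chromosome equal those of the deposited table. In genome order, *mt-Co1* lies at chrM:5328-6872, *mt-Co2* at chrM:7013-7696, *mt-Atp8* at chrM:7766-7969, *mt-Atp6* at chrM:7927-8607, *mt-Co3* at chrM:8607-9390 and *mt-Cytb* at chrM:14145-15288, all on the plus strand and each a single exon. The reading frames of *mt-Atp8* and *mt-Atp6*, which lie on 1 RNA, share 43 bases at chrM:7927-7969, or 21.1% of the 204 bases of *mt-Atp8*, and *mt-Atp6* shares 1 base with *mt-Co3*. Capitals mark the start codon of *mt-Atp6* and the stop codon of *mt-Atp8*.
Shared bases of mt-Atp8 and mt-Atp6: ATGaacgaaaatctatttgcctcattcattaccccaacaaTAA

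The last 30 bases of *mt-Co2*, *mt-Co3* and *mt-Cytb* follow, with the stop codon, or the part of it that the DNA holds, in capitals. *mt-Co2* ends in a whole stop codon, and *mt-Co3* and *mt-Cytb* end in a lone T that the polyA tail completes to a stop codon in the RNA.
mt-Co2, chrM:7667-7696: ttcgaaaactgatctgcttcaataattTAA
mt-Co3, chrM:9361-9390: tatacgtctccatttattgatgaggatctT
mt-Cytb, chrM:15259-15288: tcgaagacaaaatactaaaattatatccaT

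Chromosome 1 of the same build holds a copy of mitochondrial positions 6394 to 9828, on its minus strand at chr1:24619589-24623023, with 1 mismatch in 3435 bases. An adjoining stretch at chr1:24618374-24619595, on the same strand, holds positions 9821 to 11042 with 0 mismatches in 1222 bases. Both stretches together are called the copy here. *mt-Co2*, *mt-Atp8*, *mt-Atp6* and *mt-Co3* lie whole within the copy, with 0 mismatches. The last 479 bases of *mt-Co1*, or 31.0% of the gene, lie within it, and *mt-Cytb* has no base in it. Only the part of chromosome 1 around the copy was searched, so whether the rest of the nuclear genome matches these genes was not tested. The edge of the copy inside *mt-Co1* is shown first, with the shared bases in capitals, and then the start of *mt-Co3*, whose start codon is in capitals, beside the same stretch of chromosome 1.
mt-Co1, chrM:6364-6423: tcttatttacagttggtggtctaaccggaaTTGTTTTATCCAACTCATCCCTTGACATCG
Chromosome 1 copy, chr1:24622994-24623053, minus strand: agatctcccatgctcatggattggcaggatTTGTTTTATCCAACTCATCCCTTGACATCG
mt-Co3, chrM:8607-8651: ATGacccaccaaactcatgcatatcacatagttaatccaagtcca
Chromosome 1 copy, chr1:24620766-24620810, minus strand: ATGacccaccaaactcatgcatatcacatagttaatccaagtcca

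The deposited table lists pseudogenes on chromosome 1 at the spacing of this copy, in coordinates of another build. By that spacing *Gm29216* stands for the copied end of *mt-Co1*, *Gm28661* for *mt-Co2*, *Gm10925* for *mt-Atp6* and *Gm28437* for *mt-Co3*, and none was matched to *mt-Atp8*. Where a read lies wholly in the copied stretch it fits both places, so a count on these 4 members and on *mt-Atp8* depends on how the authors placed such reads, which was not given in the sources used here. Whether the genome of C2C12 cells carries the copy was not tested.

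The targeted gene was lower in the knockdown libraries. *Fndc1* stood at 26.7, 24.7, 28.7, 29.6 and 29.2 FPKM in si-Control replicates 1 to 5 and at 20.4, 23.5, 20.8, 21.1 and 18.7 FPKM in si-*Fndc1*. The groups did not overlap, and the log2 fold change was -0.40 (SE 0.07, edgeR quasi-likelihood test, Benjamini-Hochberg adjusted p = 0.000934), with a mean in si-*Fndc1* of 0.752 times that in si-Control. The total count was 66771605 to 75995168 per si-Control library and 56332844 to 72839369 per si-*Fndc1* library. The 11 myotube markers summed to 13714 to 15125 CPM (counts scaled to the library total) in si-Control against 13634 to 15602 in si-*Fndc1*, with 3 higher and 1 lower by the test. The 5 markers of proliferating cells summed to 140.1 to 162.2 CPM in si-Control against 142.4 to 171.6 in si-*Fndc1*, with 2 higher and 0 lower. Beside these marker counts, 17.3% of all tested genes were called higher and 17.2% lower. All 16 hepatocyte markers were higher in si-*Fndc1*, with sums of 0.579 to 14.3 CPM in si-Control against 101.1 to 364.4 in si-*Fndc1*, and their part in the results below was not tested. The 4 adipocyte markers, *Cdh5* of the endothelium, and *Ptprc* and *Adgre1* of macrophages were at 0 in every library. Endothelial markers reached at most 0.241 CPM and macrophage markers 1.65 CPM in any library, and the 3 red cell markers summed to 0.368 to 1.40 in si-Control against 1.22 to 2.17 in si-*Fndc1*.

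The 6 mRNAs were among the most abundant of the table. Together they took 3.09% to 3.53% of the counts of a si-Control library and 3.62% to 4.45% of those of a si-*Fndc1* library, ranges that did not overlap. In si-Control the order of mean FPKM was *mt-Co1*, *mt-Atp8*, *mt-Cytb*, *mt-Co2*, *mt-Atp6* and *mt-Co3*, and their ranks among all genes were 1, 2, 3, 5, 8 and 16. Of neighbours in this order, the ranges of *mt-Atp8* and *mt-Cytb* overlapped in si-Control. In si-*Fndc1* the order was the same and *mt-Co3* ranked 9 of all genes. There the ranges of *mt-Cytb* and *mt-Co2*, and of *mt-Atp6* and *mt-Co3*, overlapped. In bulk RNA a change in the cells' number or kind and a change in the RNA per cell cannot be told apart.

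Of the 6 members, 4 were higher in si-*Fndc1* at an adjusted p under 0.05 and 0 were lower, beside 17.3% of all tested genes called higher and 17.2% called lower (34.4% called either way). The 4 were all 3 cytochrome oxidase subunits and *mt-Atp8*. The median log2 fold change was 0.35 over the members and 0.00 over all tested genes. These calls changed with an offset for base composition, given below. Across 11185 genes with a known transcript, the log2 fold change fell with GC content (Spearman correlation across genes, -0.52), and the members hold 31.9% to 39.9% GC against a median of 50.5%.

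**Figure D1:**
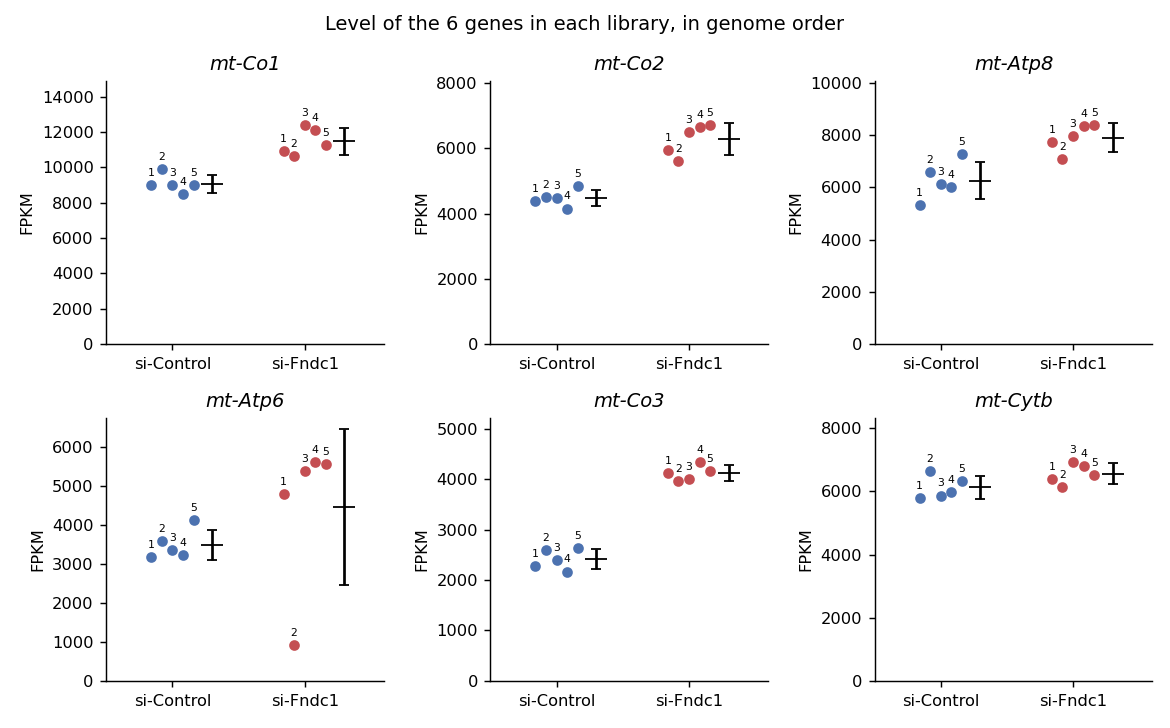
FPKM (y axis) of each of the 6 genes in every library, 5 si-Control (blue) and 5 si-Fndc1 (red), with the replicate number above each point. Black marks give the mean and SD, and every panel starts at 0. *mt-Co1*, *mt-Co2* and *mt-Co3* do not overlap between groups, and *mt-Atp6* in si-Fndc1 replicate 2 lies at 912.4 FPKM.

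*mt-Co3*, a core subunit of complex IV that binds no metal, had the highest fold change of the 6. Its FPKM was 2271, 2587, 2406, 2169 and 2638 in si-Control and 4116, 3965, 4000, 4349 and 4168 in si-*Fndc1*, in replicate order. Every si-*Fndc1* library lay above every si-Control library, as it did upwards for 12.1% and downwards for 13.0% of all tested genes. The means were 2414 ± 200 and 4119 ± 153 FPKM (SD, n = 5 each), and the log2 fold change was 0.78 (SE 0.06, adjusted p = 1.21e-05). Over the 5 si-Control libraries *mt-Co3* made up 6.10% to 6.70% of the counts of the 6 members, and over the si-*Fndc1* libraries 7.84% to 9.58%. The 9.58% is that of si-*Fndc1* replicate 2, where the low *mt-Atp6* count given below makes the sum of the 6 smaller.

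*mt-Co2*, the subunit that takes electrons from cytochrome c, also separated the groups. Its FPKM was 4385, 4514, 4483, 4154 and 4830 in si-Control and 5937, 5618, 6490, 6645 and 6713 in si-*Fndc1*. The lowest si-*Fndc1* library lay above the highest si-Control library. The means were 4473 ± 244 and 6281 ± 480 FPKM (SD, n = 5 each), and the log2 fold change came to 0.50 (SE 0.06, adjusted p = 0.000113).

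*mt-Co1*, the subunit that holds the oxygen-reducing centre of complex IV, was the most abundant mRNA of both groups. Its FPKM was 8976, 9885, 8995, 8470 and 9026 in si-Control and 10951, 10633, 12402, 12095 and 11266 in si-*Fndc1*. No library of one group entered the range of the other. The means were 9070 ± 510 and 11469 ± 753 FPKM (SD, n = 5 each), and the log2 fold change was 0.35 (SE 0.05, adjusted p = 0.000686).

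*mt-Atp8*, the shortest of the 6 genes and a small membrane subunit of the ATP synthase, rose with some overlap. Its FPKM was 5329, 6577, 6127, 6037 and 7268 in si-Control and 7744, 7072, 7980, 8365 and 8396 in si-*Fndc1*. Si-*Fndc1* replicate 2 lay below si-Control replicate 5, and the other 4 lay above every si-Control library. The means were 6267 ± 716 and 7911 ± 543 FPKM (SD, n = 5 each), and the log2 fold change came to 0.34 (SE 0.08, adjusted p = 0.00583).

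*mt-Atp6*, the subunit that lines the proton path of the ATP synthase, did not pass the test over all 10 libraries. Its FPKM was 3176, 3578, 3342, 3212 and 4118 in si-Control and 4784, 912.4, 5385, 5617 and 5556 in si-*Fndc1*. Replicate 2 of si-*Fndc1* was below every other library, at 50507 counts and 16.7% of the median of the other 4, which were all above the si-Control range. The means were 3485 ± 387 and 4451 ± 2005 FPKM (SD, n = 5 each), and the log2 fold change was 0.36 (SE 0.37, adjusted p = 0.492). Without that library the si-*Fndc1* mean was 5336 ± 380 FPKM (SD, n = 4), the log2 fold change was 0.62 (SE 0.08, adjusted p = 0.000404), and the groups did not overlap. In the same library *mt-Atp8*, on the same RNA, stood at 7072 FPKM and *mt-Co3*, the next gene, at 3965 FPKM.

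*mt-Cytb*, the only subunit of complex III that the mitochondrial genome encodes, did not pass the test. Its FPKM was 5796, 6646, 5867, 5977 and 6335 in si-Control and 6389, 6125, 6941, 6806 and 6526 in si-*Fndc1*. All 5 si-*Fndc1* libraries lay above the si-Control mean, but only 2 lay above every si-Control library. The means were 6124 ± 358 and 6557 ± 326 FPKM (SD, n = 5 each), and the log2 fold change was 0.11 (SE 0.05, adjusted p = 0.116). Its 95% interval, -0.01 to 0.22, overlaps that of *mt-Atp8*, 0.17 to 0.52, but not those of *mt-Co1*, *mt-Co2* and *mt-Co3*. Without si-Control replicate 2, the highest of its group, *mt-Cytb* passed the test (log2 fold change 0.14, adjusted p = 0.0379).

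A two-sided exact permutation test of the mean FPKM, whose smallest possible p with 5 libraries against 5 is 0.00794, reached that value for *mt-Co1*, *mt-Co2* and *mt-Co3*. The exact permutation p was 0.0159 for *mt-Atp8*, 0.0794 for *mt-Cytb* and 0.341 for *mt-Atp6*. For *mt-Atp6* without si-*Fndc1* replicate 2 it was 0.0159, the smallest that 4 libraries against 5 allow.

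The counts on 3 of the 4 chromosome 1 pseudogenes, all but *Gm29216*, were of the same size as those on the members they copy. *Gm10925* had 200953, 211695, 159717, 172538 and 158176 counts in si-Control and 277699, 285403, 297206, 292837 and 236719 in si-*Fndc1*. Unlike that of *mt-Atp6*, its count in si-*Fndc1* replicate 2 lay within the range of the other 4, so that the ratio of *mt-Atp6* to *Gm10925* was 0.177 there and 0.923 to 1.04 in the others. The ratio was 0.910 to 1.32 in si-Control. For *mt-Co2* against *Gm28661* it was 1.01 to 1.46 in si-Control against 1.01 to 1.21 in si-*Fndc1*, and for *mt-Co3* against *Gm28437* 1.002 to 1.46 and 1.04 to 1.10. These 3 members, which have no base that differs from the copy, thus had counts close to those of the copy in most libraries, at no fixed ratio. *Gm29216*, which spans only the end of *mt-Co1*, had 13.1 to 16.4 times fewer counts than *mt-Co1* in si-Control against 8.83 to 9.41 times fewer in si-*Fndc1*.

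**Figure D2:**
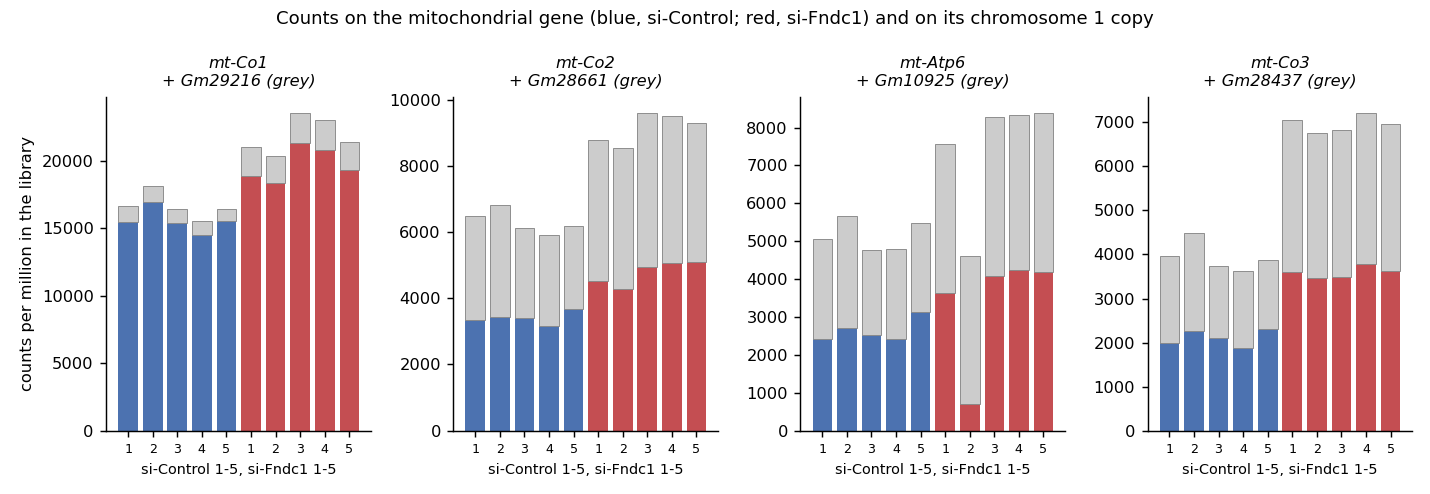
CPM, counts scaled to the library total (y axis, from 0), on 4 of the genes (blue, si-Control; red, si-Fndc1) with those on the chromosome 1 pseudogene of each stacked on top in grey, for replicates 1 to 5 of each group (x axis). The grey parts are about as tall as the coloured ones for *mt-Co2*, *mt-Atp6* and *mt-Co3*, and in si-Fndc1 replicate 2 the *mt-Atp6* part alone is short.

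The 4 pseudogenes were themselves called higher in si-*Fndc1*, with log2 fold changes of 1.02 (*Gm29216*), 0.60 (*Gm28661*), 0.70 (*Gm10925*) and 0.88 (*Gm28437*), and together took 0.740% to 0.979% of the counts in si-Control against 1.35% to 1.45% in si-*Fndc1*. Adding each to its member left the direction of all 4 as it was. The log2 fold change of the sum was 0.40 for *mt-Co1* (SE 0.05, adjusted p = 0.000273), 0.54 for *mt-Co2* (SE 0.05, adjusted p = 3.3e-05) and 0.83 for *mt-Co3* (SE 0.05, adjusted p = 7.8e-06). For *mt-Atp6* the sum was called higher, at 0.53 (SE 0.15, adjusted p = 0.0156), although si-*Fndc1* replicate 2 remained the lowest library at 4612 CPM.

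The change between the groups moved with base composition across all genes, and a fit with an offset for GC content and transcript length changed most of the members' calls. The offset, estimated per library over the 11185 genes with a known transcript, brought the Spearman correlation of the log2 fold change with GC content to 0.00. Under it 1 member was called higher (*mt-Co3*) and 2 lower (*mt-Cytb* and *mt-Atp8*), beside 10.3% of genes called higher and 9.45% lower. *mt-Co3* kept a log2 fold change of 0.29 (adjusted p = 0.00373), while *mt-Co1* came to -0.02 (adjusted p = 0.793) and *mt-Co2* to -0.02 (adjusted p = 0.773). *mt-Cytb* came to -0.32 (adjusted p = 0.000196), *mt-Atp6* to -0.24 (adjusted p = 0.678) and *mt-Atp8* to -0.44 (adjusted p = 0.0119). *mt-Atp8* is at the edge of what the offset rests on, since it has the lowest GC content of the 11185 genes and only 3 of them, itself included, are no longer than it. Few genes match the others in base composition: 0.331% of the 11185 genes have no more GC than *mt-Atp6* and 4.09% no more than *mt-Co1*. The part of base composition in the results without the offset was not tested apart from this fit.

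**Figure D3:**
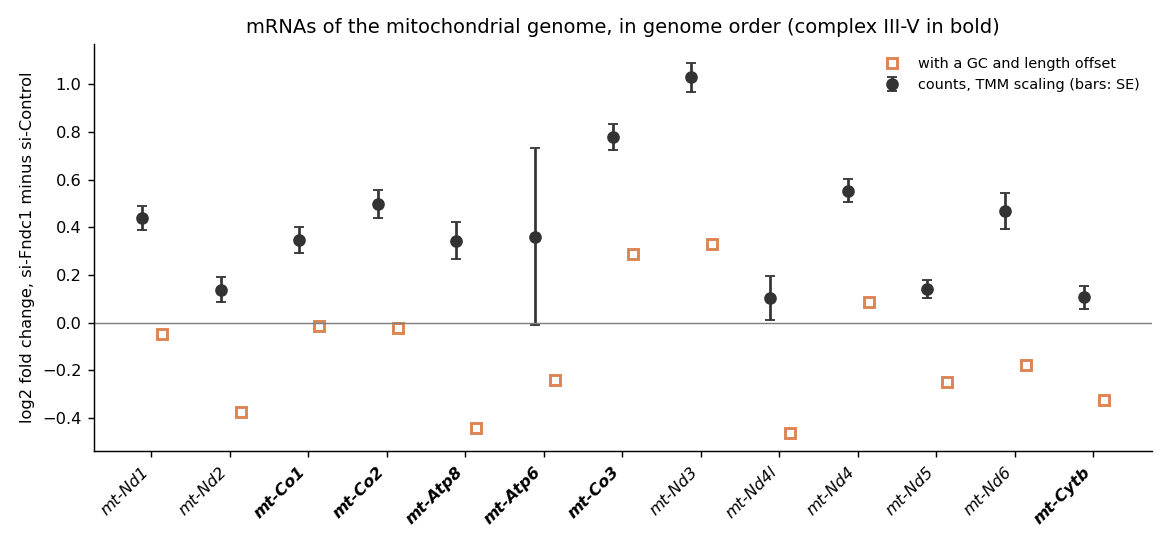
Log2 fold change, si-Fndc1 minus si-Control (y axis), of the 13 mRNAs of the mitochondrial genome in genome order (x axis, complex III-V genes in bold). Filled points with SE bars come from the counts with TMM (trimmed mean of M-values) scaling, and open squares from the fit with a GC and length offset. All 13 filled points lie above 0, whereas with the offset only *mt-Co3*, *mt-Nd3* and *mt-Nd4* do.

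Ratios of 2 members within a library do not depend on how libraries are scaled, and 9 of the 15 pairs of members differed between the groups (two-sided exact permutation test, Benjamini-Hochberg adjusted over the 15 pairs). Over all 10 libraries and without the offset, *mt-Co3* against *mt-Cytb* had the widest shift, whereas with the offset *mt-Co3* against *mt-Atp6* (0.74) and *mt-Atp8* (0.72) shifted further, and *mt-Co3* against *mt-Atp6* reached 0.81 when 1 library was left out. In si-Control the log2 ratio of *mt-Co3* to *mt-Cytb*, from FPKM, was -1.46 to -1.26 and in si-*Fndc1* -0.80 to -0.63, a difference of 0.68 (SE 0.05, exact permutation, adjusted p = 0.0149). With the offset the difference was 0.61 (SE 0.05, exact permutation, adjusted p = 0.0149). Across the alternatives over all 10 libraries without the offset, among them that with the pseudogene counts added, the difference was 0.68 to 0.73. Leaving out 1 library gave 0.65 to 0.71. The 2 genes hold 38.9% and 39.1% GC, measure 784 and 1144 bases, and lie whole and with no base in the chromosome 1 copy. The part of these properties in the shift was not tested apart from these fits.

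*mt-Cytb* fell behind each cytochrome oxidase subunit, and *mt-Co3* ran ahead of the rest. The difference of the log2 ratio to *mt-Cytb* was 0.24 (SE 0.03) for *mt-Co1* and 0.39 (SE 0.05) for *mt-Co2*, with no overlap of the groups. Against *mt-Co3*, *mt-Co1* lost 0.44 (SE 0.05) and *mt-Co2* lost 0.29 (SE 0.05). The ratio of *mt-Co3* to *mt-Atp8* rose by 0.43 (SE 0.05), that of *mt-Cytb* to *mt-Atp8* fell by 0.24 (SE 0.06), and each of these 6 had an exact permutation adjusted p of 0.0149. *mt-Co1* against *mt-Co2* fell by 0.15 (SE 0.05, exact permutation, adjusted p = 0.0397), with overlap, and lost this call when any of 8 libraries was left out. With the offset 9 pairs were called, 7 of them called in both fits. *mt-Cytb* to *mt-Atp8* (0.10, exact permutation, adjusted p = 0.512) and *mt-Co1* to *mt-Co2* (0.00, adjusted p = 1.0) lost their calls and changed sign.

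The ratios of *mt-Atp6* turned on si-*Fndc1* replicate 2. Over all libraries only *mt-Co3* to *mt-Atp6* was called, with a difference of 0.66 (SE 0.50, exact permutation, adjusted p = 0.0149). Without that library this difference was 0.17, the log2 ratio of *mt-Cytb* to *mt-Atp6* differed by -0.49 and that of *mt-Atp6* to *mt-Atp8* by 0.24, and 11 of the 15 pairs were called. *mt-Co1* against *mt-Atp8* differed by 0.00 over all libraries (SE 0.08), and *mt-Co2* against *mt-Atp8* by 0.15 (SE 0.06, exact permutation, adjusted p = 0.0714), neither past the threshold.

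**Figure D4:**
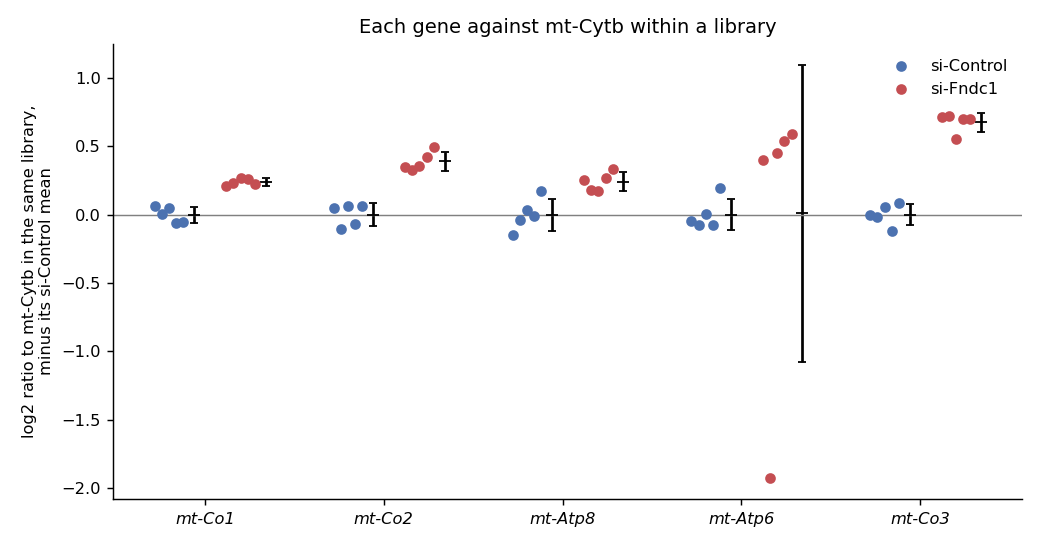
Log2 ratio of the CPM of 5 of the genes to *mt-Cytb* in the same library, minus the si-Control mean of that ratio (y axis), for 5 si-Control (blue) and 5 si-Fndc1 (red) libraries, with mean and SD in black. The si-Fndc1 libraries lie above the si-Control libraries for *mt-Co1*, *mt-Co2*, *mt-Co3* and, by a narrow gap, *mt-Atp8*, and the *mt-Atp6* ratio of si-Fndc1 replicate 2 lies far below all others.

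The other RNAs of the mitochondrial genome also differed in how far they moved. Of the 7 complex I mRNAs, 5 were called higher and 0 lower, beside 17.3% and 17.2% of all tested genes. *mt-Nd3*, the gene after *mt-Co3*, had a log2 fold change of 1.03 (SE 0.06, adjusted p = 6.84e-06), *mt-Nd4* 0.55 (adjusted p = 3.13e-05), *mt-Nd6* 0.47 (adjusted p = 0.000912), *mt-Nd1* 0.44 (adjusted p = 0.00012) and *mt-Nd5* 0.14 (adjusted p = 0.0171). *mt-Nd2* was at 0.14 (adjusted p = 0.0668) and *mt-Nd4l* at 0.10 (adjusted p = 0.421). *mt-Nd6* is the only one read from the other strand. *mt-Nd3* (1 mismatch) and *mt-Nd4l* lie whole within the chromosome 1 copy, as do 63.6% of the bases of *mt-Nd4*. Their counts therefore also depend on how shared reads were placed. With the offset *mt-Nd3* was called higher (0.33), and *mt-Nd2* (-0.38), *mt-Nd4l* (-0.46) and *mt-Nd5* (-0.25) were called lower.

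Both ribosomal RNAs, which form the mitochondrial ribosome that translates the 13 mRNAs, were called higher. The log2 fold change was 0.38 (SE 0.07, adjusted p = 0.00116) for *mt-Rnr1* and 0.51 (SE 0.05, adjusted p = 8.1e-05) for *mt-Rnr2*. They took 0.0686% to 0.0817% of the counts in si-Control against 0.0956% to 0.116% in si-*Fndc1*. The GC and length offset was fitted on coding transcripts, so neither ribosomal RNA was in that fit and their calls were not tested with it. All 37 mitochondrial genes together took 4.90% to 5.49% of the counts in si-Control against 5.82% to 6.91% in si-*Fndc1*.

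The nuclear partners of the same complexes were mostly higher or not past the test, read beside the same 17.3% and 17.2% of all genes. Of 9 nuclear subunits of complex III, 7 were called higher and 1 lower, with a median log2 fold change of 0.24. The called ones with the smallest p were *Uqcrfs1*, the iron-sulphur protein (0.38, SE 0.03, adjusted p = 3.58e-05), *Uqcr10* (0.44, adjusted p = 0.000113) and *Uqcrh*, the hinge protein (0.57, adjusted p = 0.000212). The 1 called lower was *Cyc1*, cytochrome c1, which takes electrons from the iron-sulphur protein (-0.36, adjusted p = 0.00101). With the offset 5 were called higher and 2 lower, beside 10.3% and 9.45% of all genes in that fit.

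Of 14 tested nuclear subunits of complex IV, 7 were called higher and 0 lower (median log2 fold change 0.22). They were led by *Cox6b1* (0.59, SE 0.05, adjusted p = 2e-05), *Cox7a2* (0.54, adjusted p = 9.23e-05) and *Cox7b* (0.47, adjusted p = 0.000205). Without si-Control replicate 4, *Cox6a1* was called lower, and without si-*Fndc1* replicate 3, *Cox6a1* and *Cox7a1* were. *Cox4i1*, the largest nuclear subunit, was at -0.08 (adjusted p = 0.71). Of 18 complex V subunits and the inhibitor among them, 12 were called higher and 0 lower (median 0.27), led by *Atp5g3*, which encodes the ring subunit c (0.51, SE 0.03, adjusted p = 5.57e-06), *Atp5l* (0.65, adjusted p = 1.5e-05) and *Atp5g2*, a second gene for subunit c (0.41, adjusted p = 0.000412). The catalytic core genes *Atp5a1* and *Atp5b* were at 0.03 (adjusted p = 0.579) and 0.00 (adjusted p = 0.986). With the offset 4 higher and 3 lower were called in complex IV, and 10 higher and 1 lower in complex V. Those called lower with it were *Cyc1* and *Uqcrb* in complex III, *Cox5b*, *Cox6a1* and *Cox7a1* in complex IV and *Atp5md* in complex V.

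**Figure D5:**
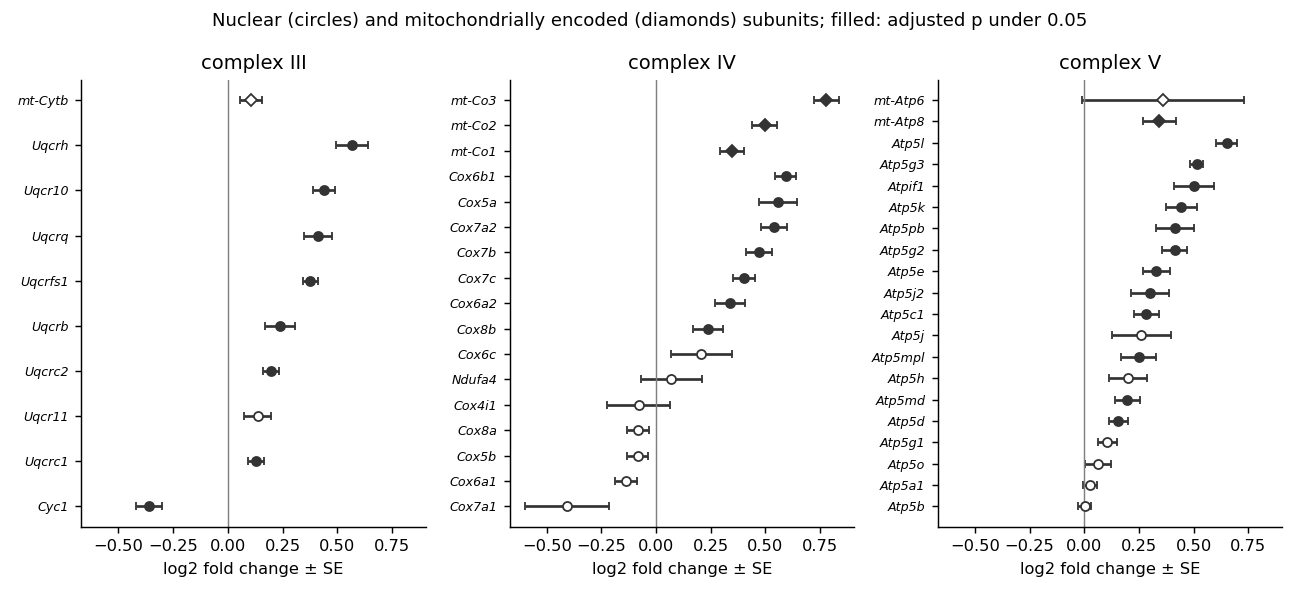
Log2 fold change, si-Fndc1 minus si-Control, with SE (x axis) of each tested subunit of complexes III, IV and V (y axis): circles, nuclear genes; diamonds, mitochondrial genes; filled, adjusted p under 0.05. In this fit, without the GC and length offset, *mt-Co3* lies above every nuclear subunit of complex IV and *Cyc1* is the only filled point below 0. With the offset *mt-Co3* (0.29) lies below *Cox6b1* (0.37) and *Cox5a* (0.34).

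Lists of genes that make and handle mitochondrial RNA had medians nearer to that of all genes. Of 19 tested genes for transcription and upkeep of mitochondrial DNA, 7 were called higher and 3 lower (median log2 fold change 0.11), beside 17.3% and 17.2% of all tested genes. *Mterf3*, which binds near the promoters of mitochondrial DNA, was at 0.77 (SE 0.09, adjusted p = 0.000158). *Ppargc1b*, a coactivator of genes for mitochondria, was at -0.69 (SE 0.12, adjusted p = 0.00108), and *Polrmt*, the mitochondrial RNA polymerase, at -0.40 (SE 0.07, adjusted p = 0.0016). The third called lower was *Esrra*, a nuclear receptor that works with such coactivators, at -0.25 (adjusted p = 0.0165). The count called higher was 4 without si-Control replicate 3, 3 without si-Control replicate 4, 2 without si-Control replicate 5 and 3 without si-*Fndc1* replicate 4, whereas 3 were called lower whichever library was left out. Over all libraries 4 were called higher with no filter on low values, and 3 with replicate number as a further term. With the offset 4 were called higher and 2 lower, beside 10.3% and 9.45% of all genes in that fit. The 2 were *Ppargc1b* (-0.47, adjusted p = 0.0102) and *Tefm*, an elongation factor of mitochondrial transcription (-0.30, adjusted p = 0.012), while *Polrmt* (-0.11, adjusted p = 0.314) and *Esrra* (-0.02, adjusted p = 0.871) lost their calls.

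Of 25 tested genes for processing, stability and translation of mitochondrial RNA, 7 were called higher and 1 lower (median 0.10), and with the offset 1 and 2. As background to this list and to the assembly factors below, 17.3% of all tested genes were called higher and 17.2% lower (34.4% either way). With the offset these shares were 10.3% and 9.45%. *Gfm1*, an elongation factor of the mitochondrial ribosome, was at 0.30 (adjusted p = 0.0014), and *Trmt10c*, part of the enzyme that cuts transfer RNAs at their 5′ ends, at 0.31 (adjusted p = 0.00271). *Fastk* was the 1 called lower, at -0.34 (adjusted p = 0.000451). *Mtpap*, the polymerase that adds the polyA tails, was at 0.35 (adjusted p = 0.00604), a gene chosen after its value was seen. Of 31 tested assembly factors of the 3 complexes, 7 were called higher and 2 lower (median 0.06), and with the offset 3 and 6. *Uqcc2* (0.45, adjusted p = 5.17e-05) and *Uqcc1* (0.36, adjusted p = 0.000453), which help cytochrome b into complex III, were called higher. *Oxa1l*, which inserts mitochondrially made proteins into the inner membrane (-0.24, adjusted p = 0.000648), and *Atpaf1*, an assembly factor of the ATP synthase (-0.39, adjusted p = 0.0292), were called lower. The count called lower was 1 when si-Control replicate 2, 3, 4 or 5 or si-*Fndc1* replicate 2, 3 or 4 was left out, and 3 without si-Control replicate 1. In each of the former *Atpaf1* lost its call and *Oxa1l* kept it.

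The genes outside the mitochondrial genome whose pattern was most like that of the mean of the 6 members, by Pearson correlation of log2 CPM over the 10 libraries, were *Pigl* (0.964), *Rpl7a-ps5* (0.956), *D8Ertd738e* (0.951), *Bfar* (0.950) and *Pla1a* (0.950). The libraries share depth and group, and these ranks rest on *mt-Atp6* in si-*Fndc1* replicate 2. Against the mean of the 5 members without *mt-Atp6*, a measure chosen after the values were seen, the same genes ranked between 706 and 1387. The most alike were then *Rps26* (0.987), *Rpl27* (0.985) and *Rpl24* (0.985), which encode proteins of the cytosolic ribosome, followed by *Mtx2* (0.984) and *Zmat2* (0.983).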

How the data were processed

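Libraries were grouped and numbered by their titles. The authors deposited 1 table of unnormalised read counts per gene with FPKM values, listed as 0.0001 where the count is 0. Its upstream steps are described differently by each source: TopHat, mm10 and htseq-count in the methods, which name fewer libraries than the 10 in the table, STAR and mm9 in the series description, and cutadapt 1.9, FastQC and GRCm39 in the submitters' processing notes. 0 columns of per-library values were left without a sample. Whether counting used the strand was not given in the sources used here.

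Counts were fitted with edgeR 4.0.16 (quasi-likelihood F test, TMM scaling, group as the only term) over the genes with a mean of at least 0.5 FPKM, with Benjamini-Hochberg adjustment over all of them and a threshold of 0.05. The standard error is the log2 fold change over the square root of F. The methods name DESeq2, which was run as an alternative (1.42.0), as was limma 3.58.1 on log2(FPKM + 1). The GC and length offset came from splines (5 degrees of freedom each) of log length and of GC content. They were fitted robustly per library to the natural log of count + 0.5 with MASS, on GENCODE vM1 coding transcripts, which 82.6% of tested genes matched. Single values and ratios were tested by exact permutation in scipy 1.17.1. Fits were also run on simulated counts, in which the planted GC trend was linear in GC content and no length trend was planted. That run does not show how the offset behaves for genes as low in GC or as short as the members.

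Members and lists were chosen with earlier results of these data known. The named genes are the members, the other mitochondrial mRNAs and rRNAs, in each list the 3 called genes with the smallest p with any needed to complete a count of 5 or fewer, *Fndc1* and the 5 most alike genes (CPM with 0.5 added). *Mtrfr*, *Uqcc4* and *Uqcc5* were not matched and not analysed here. *Cox4i1*, *Atp5a1* and *Atp5b* were named after their values were seen. No 2 libraries of a group were near copies (20 pairs, chi-square over degrees of freedom 41.5 or more). Intervals are Student intervals from the standard error. Alternatives are named in the closing section.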

Additional observations from a re-analysis of the deposited data

Results flagged for a closer look

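In 28 groups of 5 values (the FPKM of the 6 members, and for 4 of them the ratio to the chromosome 1 pseudogene and the sum with it), the lowest or highest value was tested for a gap of more than 0.71 of the range, which chance gives in about 1 group in 20. It was found 3 times, each time for *mt-Atp6* in si-*Fndc1* replicate 2: 912.4 FPKM, a ratio of *mt-Atp6* to *Gm10925* of 0.177, and a sum of both of 4612 CPM. The 3 rest on the same count of 50507, so they are 1 finding.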

How the results depend on the processing

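*mt-Co1*, *mt-Co2*, *mt-Co3* and *mt-Atp8* stayed called higher, and *mt-Cytb* and *mt-Atp6* uncalled, under DESeq2 size factors, total-count scaling, mitochondrial genes left out of library sizes, DESeq2, limma, no filter, a filter at 5 FPKM and the replicate block (numbers were not shown to pair libraries: correlations of deviations -0.0553 to 0.0643). With the GC and length offset *mt-Co1* came to -0.0155, *mt-Co2* to -0.0233, *mt-Cytb* to -0.32, *mt-Atp6* to -0.24 and *mt-Atp8* to -0.44, with 1 member called higher and 2 lower. With the replicate block added these were -0.0170, -0.0198, -0.32, -0.41 and -0.42, again 1 and 2. Genes called higher and lower were 2338 and 2325, with the offset 1147 and 1057 (of fewer genes), and with offset and block 742 and 680. In the lists 54 and 7 became 28 and 19, and 22 and 14. The offset fits hold no ribosomal RNA, so the 2 calls of these genes are missing from the latter counts without having been tested. With the pseudogene counts added *mt-Atp6* was called (0.53). The block alone called 3572 genes against 4663 and left 0 of 15 pairs of members called, because 5 pairs allow no exact p under 0.0625.

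Leaving out 1 library gave log2 fold changes of 0.32 to 0.38 for *mt-Co1*, 0.47 to 0.53 for *mt-Co2*, 0.74 to 0.81 for *mt-Co3*, 0.29 to 0.40 for *mt-Atp8*, 0.0841 to 0.14 for *mt-Cytb* and 0.26 to 0.62 for *mt-Atp6*. Called pairs numbered 8 to 11. Ratios that changed sign were, with the offset, *mt-Co1* to *mt-Co2* (0.00283), *mt-Co1* to *mt-Atp8* (0.41), *mt-Cytb* to *mt-Atp6* (0.13) and *mt-Cytb* to *mt-Atp8* (0.10), and with pseudogene counts *mt-Co1* to *mt-Atp6* (-0.10), *mt-Co1* to *mt-Atp8* (0.0512) and *mt-Atp6* to *mt-Atp8* (0.16). Without 1 library *mt-Co1* to *mt-Atp6* ran from -0.25 to 0.38, *mt-Co1* to *mt-Atp8* from -0.0596 to 0.0504, *mt-Co2* to *mt-Atp6* from -0.0910 to 0.50, *mt-Cytb* to *mt-Atp6* from -0.49 to 0.13 and *mt-Atp6* to *mt-Atp8* from -0.36 to 0.24. Why the offset moves these values was not tested beyond its own construction.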
